A study of Homo sapiens with 7 samples.

Results

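The miR-15, miR-16 and miR-195 family was measured as 4 of the 377 human microRNA assays on TaqMan Human MicroRNA Array A cards, namely miR-15a, miR-15b, miR-16 and miR-195. Its members were taken by the name of the assay, and all 4 were found on each of 7 cards. The cards came from 3 oligometastatic lines called L1-R2 (3T, 4T, 8T) and 4 polymetastatic lines called L1Mic-R2 (2T, 3T, 7T, 8T), with 1 card per line. All 7 lines descend from MDA-MB-435-GFP, an established human tumor cell line that stably expresses green fluorescent protein, and each was grown from the lung of a distinct athymic female mouse after tail vein injection and purified by G418 selection. L1-R2 lines came from mice that received L1-R1 cells, obtained from lung macrometastases, and L1Mic-R2 lines from mice that received L1Mic-R1 cells, obtained from the macrometastasis-free lung tissue of the same animal. The groups thus compare descendants of a single pair of parental lines.

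MicroRNAs are short RNAs that pair with messenger RNAs mainly through their seed, the bases 2 to 8 from the 5′ end, and lower the output of the paired messages. Members of this family share a seed and act on many of the same messages, among them those of cyclins D1 and E1 and of the survival protein BCL2, and they are known as brakes on entry into the cell cycle. The pair miR-15a and miR-16 lies in a region that is often deleted in chronic lymphocytic leukemia.

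The mature sequences are shown because they give what the members share and where they part. RefSeq (GRCh38.p14) held all 4, matched on the arm that the older names without an arm stand for, the 5p arm. The seed is in capitals.
miR-15a: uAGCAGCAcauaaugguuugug
miR-15b: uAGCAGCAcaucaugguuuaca
miR-16: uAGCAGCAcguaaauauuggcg
miR-195: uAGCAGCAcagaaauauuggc
The seed is the same in all 4, and the differences start at position 10, counted from 1 at the 5′ end. MiR-15a and miR-15b are identical at 18 of 22 positions and differ by A12C, G20A, U21C and G22A. MiR-16 and miR-195 are identical at 19 of the 21 positions they share and differ by G10A and U11G, and miR-195 is 1 base shorter. The closest sequences are therefore not those made from 1 transcript. MiR-15a and a copy of miR-16 lie within DLEU2 on chromosome 13, at 50049167 to 50049188 and 50049027 to 50049048 on the minus strand, and their hairpins are 57 bases apart. MiR-15b and the other copy of miR-16 lie within the span of SMC4, which encodes a condensin subunit, on chromosome 3, at 160404607 to 160404628 and 160404754 to 160404775 on the plus strand, with 59 bases between the hairpins. MiR-195 lies within MIR497HG on chromosome 17, at 7017667 to 7017687 on the minus strand. Both copies of miR-16 give the same mature sequence, so that the single miR-16 assay cannot tell them apart.

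Each value is a threshold cycle (Ct), counted until the fluorescence of a well passes a set level. A well with more RNA passes it earlier and has a lower Ct, and 1 cycle stands for a doubling. A Ct below 38 was called detected, and an Undetermined well has a Ct of 40. The cards detected 172 to 184 microRNAs in L1-R2 and 160 to 172 in L1Mic-R2. Card numbers ran from 1 to 3 in L1-R2 and from 4 to 7 in L1Mic-R2, so that card order and group cannot be told apart. The files of L1-R2 lines 3T and 4T carry each other's number in their names, which leaves the groups as they are. Line 4T as labelled stood apart in the control RNAs, with a raw Ct of 18.81 for RNU48 against 20.07 to 20.97 on the other cards. Of the 8 melanocyte-linked microRNAs on the card 6 were detected in all 7 lines, against 2 of 7 epithelial ones, with miR-141 and miR-205 detected in none.

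The 4 members lay at very different places on the cards. MiR-16 was among the most abundant, with the 4th or 5th lowest of 381 Ct values on every card and a raw Ct between 20.74 and 21.68. MiR-15b (rank 47 to 66) and miR-195 (rank 52 to 61) were detected in all 7 lines at 27.83 to 28.60 and 27.30 to 28.63. MiR-15a was at the limit of the assay, at 36.11 to 40, and was detected in 4 of the 7 lines. Assays differ in efficiency, so these ranks order signals on a card and not molecules.

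**Figure D1:**
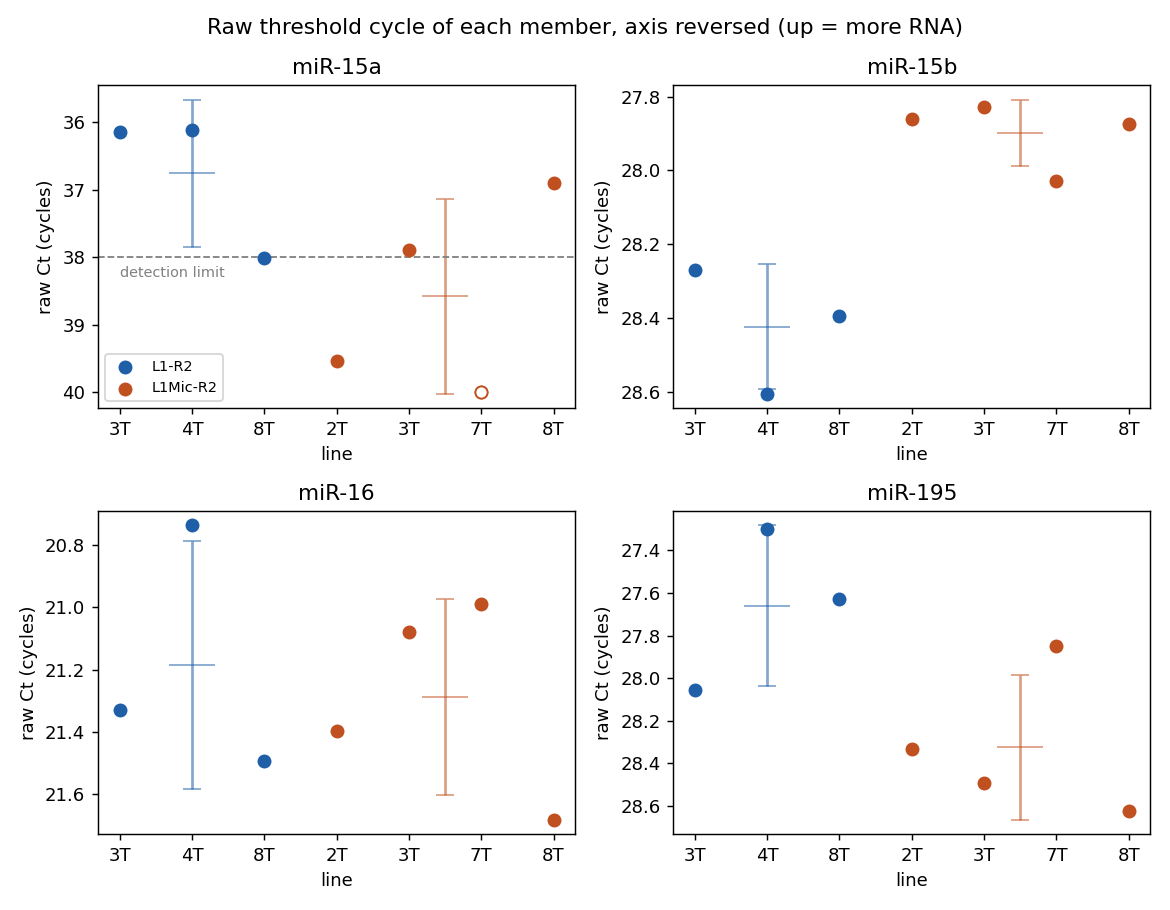
Raw Ct (cycles, vertical axis reversed so that up is more RNA, with a scale of its own in each panel) of the 4 members in each line, with the mean and SD of each group as bars. The open circle is an Undetermined well and the dashed line the detection limit of 38. In the miR-15b panel every L1Mic-R2 line lies above every L1-R2 line, and in the other panels the groups overlap.

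Whether oligometastatic and polymetastatic lines differ in these microRNAs is the question of the series. After quantile normalization 0 of the 4 members passed an adjusted p of 0.05 in limma, where 4.97% of all 181 microRNAs tested did and 3.31% were higher in L1Mic-R2. At an unadjusted p under 0.05 there was 1 member, miR-15b, against a background of 19.3%. MiR-15b had a lower raw and a lower normalized Ct in every L1Mic-R2 line than in any L1-R2 line. The normalized means of miR-195 and miR-15a differed by less than the SD of L1Mic-R2. For miR-16 the normalized values cannot be read this way, since they were tied in all lines but L1Mic-R2 line 8T. Its raw means were 21.19 in L1-R2 and 21.29 in L1Mic-R2, with an SD of 0.32 in L1Mic-R2. Log2 fold changes, given here as polymetastatic over oligometastatic, had a median of -0.07 over the members and 0.06 over all 181. They were positive for 1 member and negative for 3, against 98 and 83 of the whole.

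MiR-15b is the member encoded in SMC4. The oligometastatic lines 3T, 4T and 8T had a raw Ct of 28.27, 28.60 and 28.40, and the polymetastatic lines 2T, 3T, 7T and 8T gave 27.86, 27.83, 28.03 and 27.87. The groups thus did not overlap in raw Ct, with 0.24 cycles between the closest lines, though they did overlap relative to U6. The groups of 20.4% of all microRNAs tested did not overlap in raw Ct either, and 19.3% did not overlap after normalization, 8.84% with L1Mic-R2 higher. The raw mean was 28.42 ± 0.17 (SD, n = 3) for oligometastatic and 27.90 ± 0.09 (SD, n = 4) for polymetastatic lines, a difference of 0.53 on the log2 scale (exact two-sided permutation test, p = 0.0286, the smallest p that 3 lines against 4 can give). In limma the raw difference had an adjusted p of 0.202. Quantile normalized, miR-15b had means of 28.62 ± 0.17 (SD, n = 3) and 27.78 ± 0.30 (SD, n = 4) (exact two-sided permutation test, p = 0.0571). The log2 fold change was 0.84 (standard error 0.22, 95% interval 0.31 to 1.36, adjusted p = 0.0819 from limma), or 1.79-fold, and miR-15b ranked 17th of 181 by p. With any single line left out it ran from 0.72 to 0.97, with an adjusted p from 0.0553 to 0.2 in limma, and without line 4T of L1-R2 it was 0.74 (adjusted p = 0.171). It passed the threshold when limma was run with its trend and robust options (adjusted p = 0.0316), where 21 of all 181 microRNAs did against 9 without them, and with the test limited to the 135 microRNAs found in every line (adjusted p = 0.0464), where 14 did. Over all alternatives that kept the 7 lines the adjusted p ran from 0.0316 to 0.51.

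MiR-126, the marker of endothelium, had a raw Ct of 32.46 to 35.06 in L1-R2 and 28.71 to 32.41 in L1Mic-R2. Its log2 fold change after quantile normalization was 3.44 (standard error 0.98, adjusted p = 0.104 from limma). On a log2 scale of 40 minus Ct, the summed level of the 8 melanocyte-linked microRNAs was 14.97 to 15.64 in L1-R2 and 13.92 to 14.75 in L1Mic-R2, and that of the 7 epithelial ones 7.39 to 10.30 and 5.49 to 8.31. The ranges of miR-126 and of the melanocyte-linked sum did not overlap between the groups, which in raw Ct held for 20.4% of single microRNAs tested. The part of these markers in the miR-15b difference was not tested.

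MiR-16 is the member encoded in both DLEU2 and SMC4. The oligometastatic lines 3T, 4T and 8T had a raw Ct of 21.33, 20.74 and 21.49, and the polymetastatic lines 2T, 3T, 7T and 8T gave 21.40, 21.08, 20.99 and 21.68. The groups overlapped in part, with L1-R2 line 4T below and L1Mic-R2 line 8T above all lines of the other group. The raw mean was 21.19 ± 0.40 (SD, n = 3) for oligometastatic and 21.29 ± 0.32 (SD, n = 4) for polymetastatic lines (exact two-sided permutation test, p = 0.714). Quantile normalization gives each rank on a card a common value, and since miR-16 held the same rank on 6 cards its normalized Ct was 21.24 on all of them and 21.46 on that of L1Mic-R2 line 8T. The SD of the L1-R2 lines is therefore 0 on that scale, and the interval of the log2 fold change, -0.38 to 0.28 around -0.05 (adjusted p = 0.842 from limma, and -0.04 without L1-R2 line 4T), holds little of the spread of miR-16 itself. Without normalization the log2 fold change was -0.10 (standard error 0.29, adjusted p = 0.882 from limma). MiR-16 is also abundant in red blood cells. MiR-451, the defining microRNA of those cells, was Undetermined in all 7 lines. Of the 7 blood cell microRNAs on the card, 2 were detected in no line and 0 in every line. MiR-150 was detected in 5 lines and miR-223 in 4. The summed level of the 7, on the same scale of 40 minus raw Ct, was 5.84 to 7.0 in L1-R2 and 2.81 to 6.08 in L1Mic-R2. Single microRNAs of the list went both ways. The mean raw Ct in L1-R2 and L1Mic-R2 was 34.31 and 38.25 for miR-150, and 38.75 and 36.71 for miR-223. Any part of blood cells in the level of miR-16 was not tested.

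MiR-195 is the member from MIR497HG. The oligometastatic lines 3T, 4T and 8T had a raw Ct of 28.05, 27.30 and 27.63, and the polymetastatic lines 2T, 3T, 7T and 8T gave 28.33, 28.49, 27.85 and 28.63. L1Mic-R2 line 7T lay below L1-R2 line 3T, and the other L1Mic-R2 lines lay above all L1-R2 lines. The raw mean was 27.66 ± 0.38 (SD, n = 3) for oligometastatic and 28.32 ± 0.34 (SD, n = 4) for polymetastatic lines, 0.66 cycles later in L1Mic-R2 (exact two-sided permutation test, p = 0.0857). Quantile normalized, its means were 27.97 ± 0.17 (SD, n = 3) and 28.06 ± 0.28 (SD, n = 4), a log2 fold change of -0.08 (standard error 0.21, 95% interval -0.59 to 0.42, adjusted p = 0.842 from limma). The size of this difference thus depended on the scale, and it did not pass the test on either. Without L1-R2 line 4T the normalized difference was -0.03.

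MiR-15a is the partner of miR-16 in DLEU2. The oligometastatic lines 3T, 4T and 8T had a raw Ct of 36.14, 36.11 and 38.02, the polymetastatic lines 2T, 3T and 8T gave 39.54, 37.89 and 36.89, and line 7T was Undetermined. It was detected in 2 of the 3 L1-R2 and in 2 of the 4 L1Mic-R2 lines, and the groups overlapped. The normalized mean was 37.48 ± 1.18 (SD, n = 3) for oligometastatic and 37.84 ± 1.74 (SD, n = 4) for polymetastatic lines. The log2 fold change was -0.35 (standard error 1.07, adjusted p = 0.861 from limma) with a 95% interval from -2.95 to 2.25, so that a difference in either direction of several fold was not detectable at this signal. It was -1.83 without normalization, and its sign turned without L1-R2 line 3T (0.04), without L1-R2 line 4T (0.02) and without L1Mic-R2 line 7T (0.35).

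**Figure D2:**
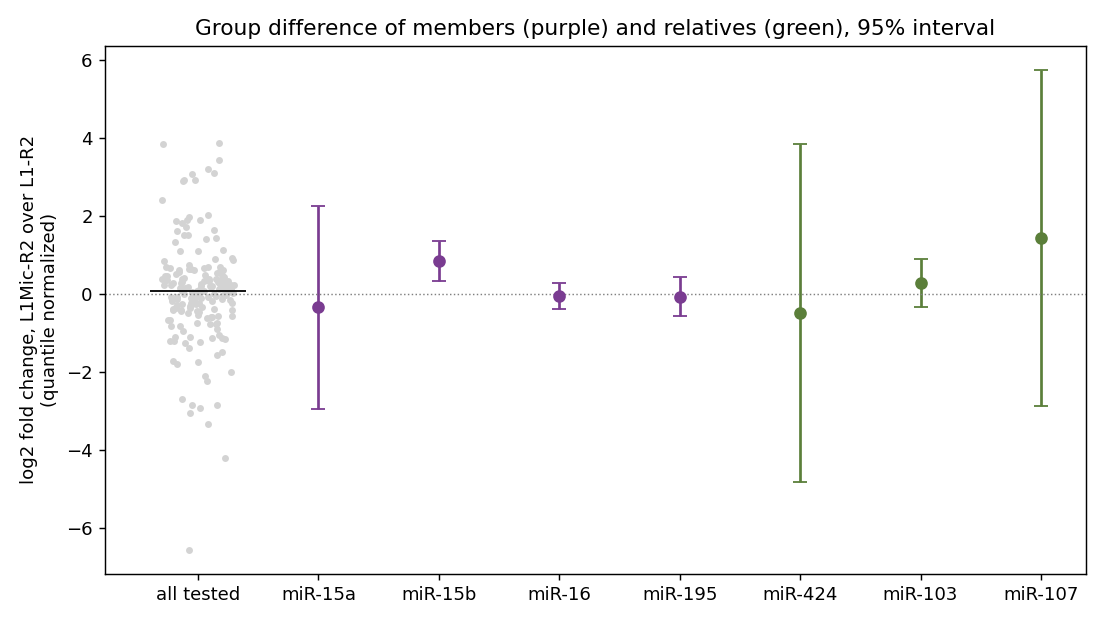
Log2 fold change (vertical axis, polymetastatic over oligometastatic lines, quantile normalized). Grey points are the 181 microRNAs tested, with their median as a line, and the purple (members) and green (relatives) points carry 95% intervals from limma. The interval of miR-15b, 0.31 to 1.36, lies above 0, and the others include it.

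The control RNAs and the overall level of a card set the scale of these values. Quantile normalization put the median log2 fold change of the 181 microRNAs at 0.06. It was -0.25 on raw Ct, -0.19 relative to U6, 0.56 relative to RNU44 and RNU48 and -0.01 relative to the average of the microRNAs found in every line. Under the same 5 scalings the log2 fold change of miR-15b was 0.84, 0.53, 0.58, 1.33 and 0.76. This mean difference was positive under each, but single lines of the groups overlapped relative to U6 and relative to RNU44 and RNU48. L1Mic-R2 line 7T and L1-R2 line 3T had a raw Ct of 28.03 and 28.27 for miR-15b, and of 16.15 and 16.60 for U6. The distance of miR-15b from the median of all microRNAs was 0.78 with quantile normalization. It was 0.77 under the other 4 scalings, which shift whole cards and so give the same distance by construction. MiR-16 was -0.05, -0.10, -0.05, 0.70 and 0.13, so that its sign turned under the last pair, and its distance from the median of all microRNAs was -0.11 with quantile normalization and 0.14 otherwise. MiR-195 was -0.08, -0.66, -0.61, 0.14 and -0.43, a distance of -0.14 with quantile normalization and -0.42 otherwise. MiR-15a was below the median throughout, at a distance of -0.41 and -1.58.

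**Figure D3:**
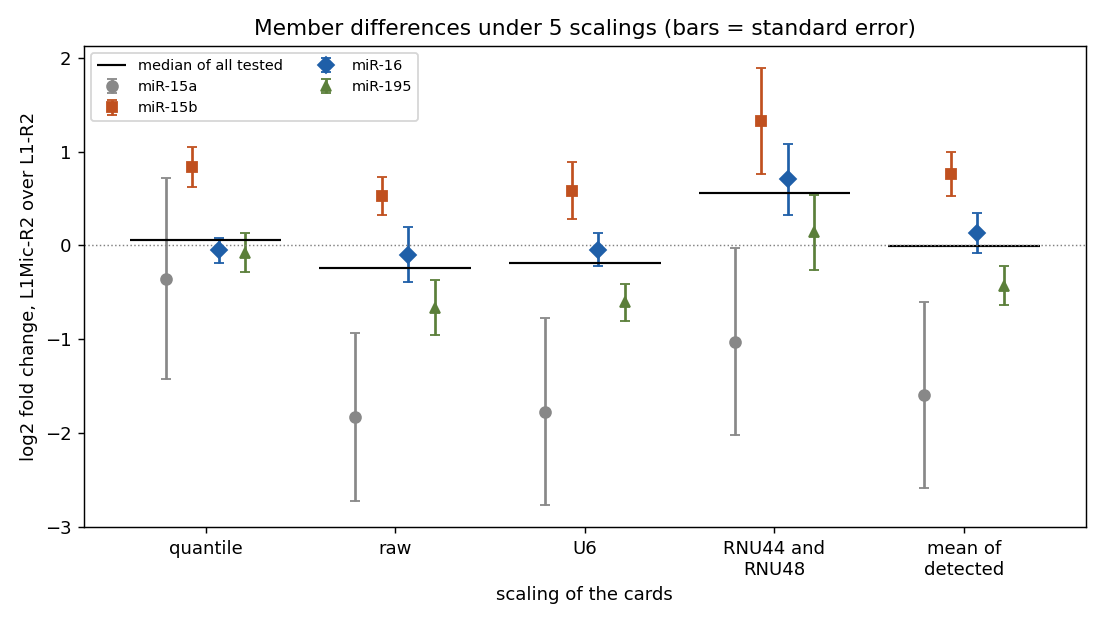
Log2 fold change (vertical axis, polymetastatic over oligometastatic lines) of the 4 members under 5 scalings of the cards (horizontal axis), with standard errors from limma as bars and the median of all 181 microRNAs tested as a black line. The 4 scalings other than quantile normalization shift whole cards, so that they move all members alike and keep their order by construction.

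A difference between 2 assays on 1 card does not change when the whole card is shifted, so the members were also compared with each other. The log2 ratio of 2 members is the raw Ct of the second minus that of the first, and all 6 pairs were tested. Their adjusted p ran from 0.171 to 0.371 (exact two-sided permutation tests, Benjamini-Hochberg over 6 pairs), so that 0 pairs passed 0.05. The groups did not overlap for 2 pairs, both with miR-195. Among all 9045 pairs of microRNAs detected in all 7 lines this held for 26.5%. MiR-15a was not detected in all 7 lines, so the member pairs that include it lie outside that set.

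The ratio of miR-15b to miR-195 compares members of near equal Ct. In the oligometastatic lines 3T, 4T and 8T it was -0.22, -1.30 and -0.77, and the polymetastatic lines 2T, 3T, 7T and 8T gave 0.47, 0.66, -0.18 and 0.75. The signal of miR-15b was thus below that of miR-195 in all 3 L1-R2 lines and above it in 3 of the 4 L1Mic-R2 lines, and L1Mic-R2 line 7T lay just above L1-R2 line 3T. The mean was -0.76 ± 0.54 (SD, n = 3) in the former and 0.43 ± 0.42 (SD, n = 4) in the latter, a difference of 1.19 or 2.28-fold (exact two-sided permutation test, p = 0.0571, adjusted p = 0.171). With single lines left out the difference was 0.92 to 1.46, the lowest without L1-R2 line 4T.

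The ratio of miR-16 to miR-195 compares the members closest in sequence. In the oligometastatic lines 3T, 4T and 8T it was 6.73, 6.56 and 6.14, and the polymetastatic lines 2T, 3T, 7T and 8T gave 6.93, 7.41, 6.86 and 6.94. All L1Mic-R2 lines lay above all L1-R2 lines. The difference in mean was 0.56 or 1.48-fold (exact two-sided permutation test, p = 0.0286, adjusted p = 0.171), and 0.03 on quantile normalized Ct. With single lines left out it was 0.39 (without L1-R2 line 8T) to 0.69, and 0.61 without L1-R2 line 4T.

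The host transcripts pair miR-16 with miR-15a and with miR-15b. The log2 ratio of miR-15a to miR-16 was -15.57 ± 0.87 (SD, n = 3) for oligometastatic and -17.30 ± 1.66 (SD, n = 4) for polymetastatic lines (exact two-sided permutation test, p = 0.143). That of miR-15b to miR-16 was -7.24 ± 0.55 (SD, n = 3) and -6.61 ± 0.36 (SD, n = 4), a difference of 0.63 that was 0.31 without L1-R2 line 4T (p = 0.143 with all lines, exact two-sided permutation test). The groups overlapped in both ratios. The ratio of miR-15a to miR-15b, -8.33 ± 1.13 (SD, n = 3) and -10.68 ± 1.39 (SD, n = 4), overlapped as well.

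**Figure D4:**
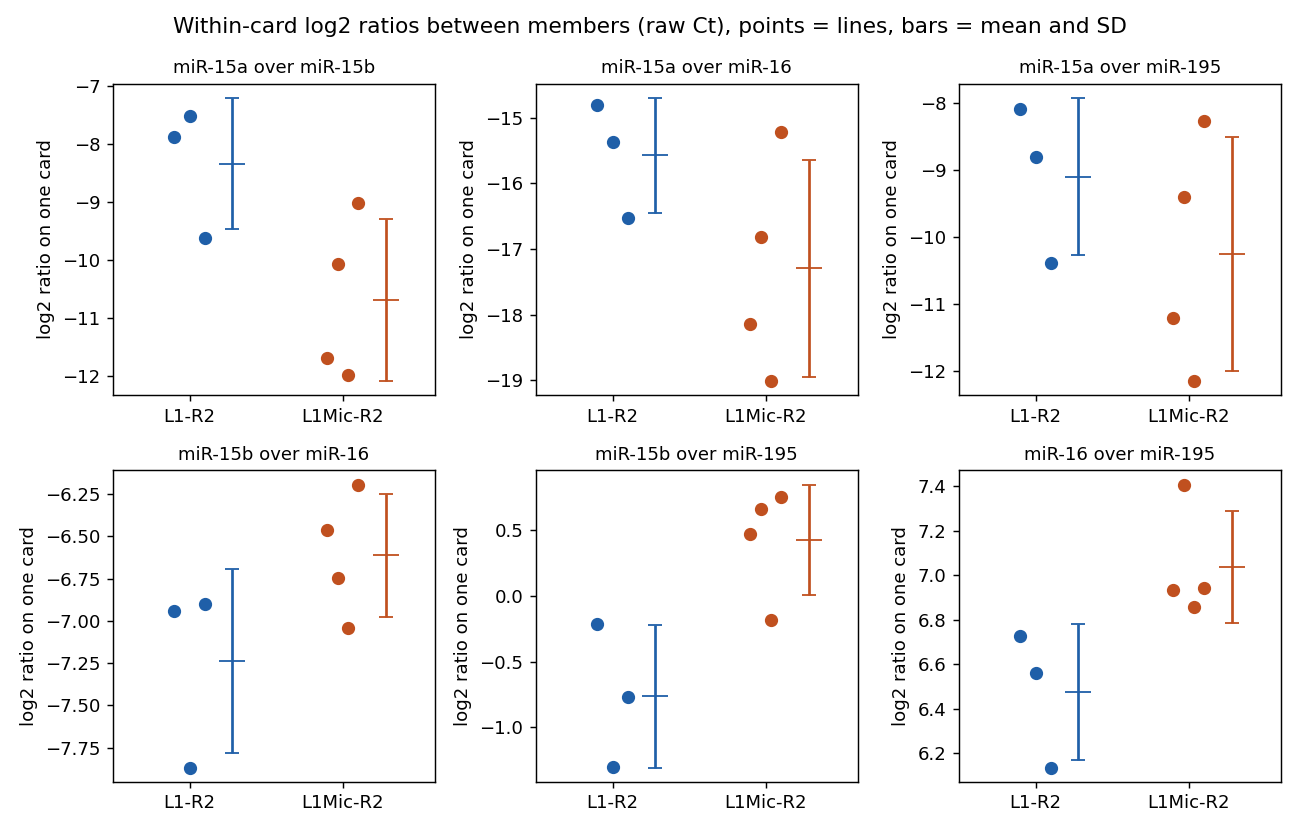
Within-card log2 ratio of 2 members (vertical axis, raw Ct of the second minus that of the first, with a scale of its own in each panel) for the 6 pairs. Points are lines and bars the mean and SD of each group. The groups do not overlap for miR-15b over miR-195 and for miR-16 over miR-195, and overlap in the other 4 panels.

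Whether the members varied together across the 7 lines was tested for each pair. On quantile normalized Ct, 0 of 6 correlations between members passed the test (Pearson's r from -0.61 to 0.25, adjusted p from 0.631 to 0.857; Spearman's rho from -0.61 to 0.25, adjusted p from 0.474 to 1; exact permutation tests). The 3 pairs with miR-16 rest on L1Mic-R2 line 8T alone, since miR-16 had a single normalized value in the other lines. The lowest r and rho are among these pairs, while miR-16 and miR-195 had r = -0.15. With the group means removed, miR-15a and miR-15b had r = 0.80 on quantile normalized Ct, and 0.22 on raw Ct. On raw Ct, miR-15b and miR-195 ran against each other, with r = -0.92 (exact permutation p = 0.00456, adjusted p = 0.0274) and rho = -0.86 (exact permutation p = 0.0238, adjusted p = 0.143) over 7 lines. Without L1-R2 lines 4T and 8T, the farthest from the median, r was -0.69, and with the group means removed it was -0.91. Relative to the average of the microRNAs found in every line, the same pair had r = -0.87 (exact permutation p = 0.0127, adjusted p = 0.0762) and rho = -0.86, and on quantile normalized Ct r = -0.37, so that its size depended on the scaling. The partners miR-15a and miR-16 had r = 0.02 on raw Ct and miR-15b and miR-16 had r = -0.41.

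The 132 other microRNAs detected in all 7 lines were ranked by their likeness to each member, as Pearson's r of normalized Ct over the 7 lines, given as a description. The most like miR-15b were miR-221 (r = 0.96), miR-744 (r = 0.94) and miR-876-5p (r = 0.93). All 3 had a larger group difference than miR-15b, with log2 fold changes of 2.41, 1.51 and 3.21, and with the group means removed r was 0.81, 0.65 and 0.63. For miR-195 they were miR-508-5p (r = 0.79), miR-422a (r = 0.78) and miR-532-5p (r = 0.72). For miR-16 they were miR-194 (r = 0.77), miR-10a (r = 0.70) and miR-212 (r = 0.64), where the likeness turns on the 1 line in which the normalized value of miR-16 differs.

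A wider group of microRNAs shares the bases AGCAGC near the 5′ end, and 4 of them were on the card besides the family, shown to place their seeds beside the family's.
miR-424: cAGCAGCAauucauguuuugaa
miR-503: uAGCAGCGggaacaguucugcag
miR-103: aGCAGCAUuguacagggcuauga
miR-107: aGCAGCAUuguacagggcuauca
MiR-424 has the seed of the family, miR-503 differs from it in the last base, and miR-103 and miR-107 carry it shifted by 1 base. MiR-497, the neighbor of miR-195 in MIR497HG with the same seed, was not analysed here, nor was miR-646. Of the 4 on the card, 3 were detected in at least 3 lines and tested, and 0 passed an adjusted p of 0.05 in limma, nor an unadjusted one. MiR-103, made from introns of pantothenate kinase genes, was the only one detected in all 7 lines. Raw Ct was 30.68, 29.64 and 30.24 for the oligometastatic lines 3T, 4T and 8T, and the polymetastatic lines 2T, 3T, 7T and 8T gave 29.76, 29.89, 30.00 and 30.20. Its groups overlapped, and its log2 fold change was 0.27 (standard error 0.26, 95% interval -0.35 to 0.90, adjusted p = 0.598 from limma). MiR-424 and miR-107 were each detected in 4 lines and had intervals from -4.82 to 3.84 and from -2.89 to 5.74. MiR-503 was detected in 2 lines, L1-R2 line 4T at 35.91 and L1Mic-R2 line 7T at 35.67, and did not enter the test. Of the 5 microRNAs with the seed of the family on the card, miR-16, miR-15b and miR-195 were thus detected in every line, and miR-15a and miR-424 were late in the PCR or Undetermined.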

How the data were processed

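MicroRNA was measured by TaqMan quantitative PCR in 3 L1-R2 and 4 L1Mic-R2 lines. The authors deposited, per assay, an average threshold cycle on a log2 scale before quantile normalization, imported with SDS RQ Manager at a threshold of 0.3. Each line had 1 card, so the spread within a group holds both line and measurement error. The labels name SYBR and mammary fat pad injection, and the TaqMan assays and tail vein injection of the paper were used.

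The 7 cards, each of 381 assays, were brought to a common Ct distribution by quantile normalization in limma 3.58.1 (R 4.3.3). The 181 microRNAs below Ct 38 in at least 3 lines entered limma's lmFit and eBayes as 40 minus normalized Ct, and p-values were adjusted over all 181 (Benjamini-Hochberg). Single values were compared by exact permutation over the 35 splits of 7 lines. Before use, the main limma fit was tested on simulated data, and the exact test of group means was checked there only for its smallest p. The simulated differences were 3 on the log2 scale, larger than that of any member. The simulation therefore does not show whether differences of the members' size would be found. The correlation tests and the alternative fits were not simulated. Line numbers came from the labels. The text names the members, the relatives with AGCAGC near the 5′ end, the control RNAs and the 3 microRNAs most like each member detected in all lines, and markers. The members and lists were chosen with earlier results of these data known. Alternatives were other scalings, Ct limits, detection filters, fits, line numbers as a replicate block, and leaving out single lines.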

Additional observations from a re-analysis of the deposited data

Results flagged for a closer look

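In 2 of 14 sets of L1Mic-R2 values examined, a line stood far from the other 3. Chance flags about 1 set in 20, a rate that does not apply to the first of them, where the other 3 values are tied by quantile normalization. The normalized Ct of miR-16 was 21.46 in L1Mic-R2 line 8T and 21.24 in the other lines, which held the same rank on their cards, while its raw Ct was 21.68 against 20.99 to 21.40. The log2 ratio of miR-16 to miR-195 was 7.41 in L1Mic-R2 line 3T and 6.86 to 6.94 in the others.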

How the results depend on the processing

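Of the alternatives that kept all 7 lines, 39 log2 fold changes of single members kept their direction and their side of the threshold, 5 reversed and 2 passed it newly. The number of members at an adjusted p under 0.05 in limma was 0 and became 1, miR-15b (0.84), with trend and robust options, where 21 of all 181 microRNAs passed against 9 without them, and with the test limited to the 135 microRNAs found in every line, where 14 passed. It was 0 in all 7 fits without one line. In a two-tailed Student test, which the methods name for patient samples, 0 of all 180 microRNAs with a value passed after adjustment, while 35 had an unadjusted p under 0.05, miR-15b among them. Relatives at the adjusted threshold numbered 0 under all 12 alternatives and all fits without one line.

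With RNU44 and RNU48, log2 fold changes reversed for miR-16 (0.70) and miR-195 (0.14), on a scale that moved the median of all microRNAs by 0.50, and relative to the average of the microRNAs found in every line for miR-16 (0.13). With a replicate block by the labels' line numbers miR-15a reversed to 1.24, and to 1.30 by those of the file names, in fits with 1 residual degree of freedom against 5, while miR-15b was 0.94 (adjusted p = 0.51 from limma) and 1.12. All microRNAs at the adjusted threshold numbered 9 without and 0 with the block. The labels do not say what the line number stands for. Deviations of same-numbered lines from their group means had r = -0.04 for lines 3T and -0.20 for lines 8T across 181 microRNAs. By the numbers of the file names r was 0.02 for number 3. Within same-numbered pairs the ratio of miR-15a to miR-195 reversed to 0.40, and the other ratios kept their sign.

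Without one line the log2 fold change ran from -1.08 to 0.35 for miR-15a, 0.72 to 0.97 for miR-15b, -0.08 to 0 for miR-16 and -0.19 to 0.0471 for miR-195, which reversed without L1Mic-R2 line 3T. The narrow range of miR-16 reflects its tied normalized values and does not measure its stability. Ratios ran from -3.0 to -1.92 for miR-15a to miR-15b, -2.42 to -1.15 for miR-15a to miR-16 and -1.83 to -0.53 for miR-15a to miR-195, and those without miR-15a stayed positive. With 6 lines the exact test of a ratio cannot reach 0.05.

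Correlations reversed on raw Ct for miR-15a with miR-15b (-0.52), miR-16 (0.0226) and miR-195 (0.165) and for miR-16 with miR-195 (0.59). Relative to that average they reversed for miR-15a with miR-15b (-0.18), miR-16 (0.050) and miR-195 (0.183) and for miR-15b with miR-16 (0.0267). The cause of these changes was not tested. With Ct limited to 35 miR-15a has no value, since its Ct was above 35 in every line, and it does not enter when detection in all 7 lines is required.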
